A study of Homo sapiens with 29 samples.

Results

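The comparison described here is that of C4-2 cells given enzalutamide alone (Enza) with C4-2 control cells for which the labels name no compound (Ctrl). It was picked by column name in the count table of the C4-2 line, and it holds 6 of the 29 libraries of the series, 3 Enza and 3 Ctrl. C4-2 is a human prostate cancer line derived from LNCaP that grows without testicular androgen and still uses its androgen receptor. All cells were kept in medium that contains hormone. The Enza cells received 1 µM enzalutamide for 24 h, and a vehicle for the Ctrl cells is not named. The other C4-2 groups used below, also of 3 libraries each, received a kinase inhibitor at 1 µM for 24 h with or without enzalutamide. NU7441 is a DNA-PK inhibitor, CC-115 is labelled for DNA-PK inhibition and is also known to inhibit the TOR kinase, and CC-223 is labelled as a TOR kinase inhibitor. Total RNA depleted of ribosomal RNA was sequenced, and the total was 30.49 to 36.42 M counts per Enza library and 34.15 to 36.57 M per Ctrl library.

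The androgen receptor is a nuclear receptor that, once bound by testosterone or dihydrotestosterone, enters the nucleus, binds androgen response elements and switches on genes of secretion, metabolism and growth in prostate epithelium. Enzalutamide binds the hormone pocket of the receptor and keeps it from entering the nucleus and from recruiting coactivators. A smaller group of genes is held down by androgen in LNCaP-derived cells and is released when the receptor is blocked.

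The 3 replicate libraries of Enza did not resemble each other equally, and the results are therefore given with and without Enza 1. The correlation of log2 CPM, the counts scaled to a library of fixed size, across genes was 0.9813 between Enza 1 and Enza 2 and 0.9791 between Enza 1 and Enza 3. It was 0.9929 between Enza 2 and Enza 3 and 0.9926 to 0.9937 among the Ctrl libraries. With the Ctrl libraries it was 0.9705 to 0.9743 for Enza 1 and 0.9831 to 0.9881 for Enza 2 and 3. Small nucleolar RNA took 1.09% of the counts in Enza 1, 0.488% and 0.451% in Enza 2 and 3, and 0.495% to 0.62% in the Ctrl libraries. Mitochondrial RNA took 0.964% of the counts in Enza 1, 3.52% and 6.12% in Enza 2 and 3, and 0.92% to 2.34% in the Ctrl libraries. In that share Enza 1 lay within the range of the Ctrl libraries, and Enza 2 and 3 lay above it. Markers of luminal prostate epithelium summed to 3520 to 3800 CPM in Enza libraries and 5000 to 5220 CPM in Ctrl libraries, and KLK3 is one of these 10 markers. The 16 markers of basal, stromal, immune and endothelial cells summed to 11.4 to 20.6 CPM in Enza libraries and 9.97 to 12.1 CPM in Ctrl libraries. The endothelial marker PECAM1 had no count in any of the 6 libraries, and the basal markers KRT5 and TP63 had at most 1 count in a library. Other markers of these cell types did have counts. The endothelial marker VWF had 69 to 145, the stromal marker ACTA2 119 to 153 and the basal marker KRT14 at most 7 in a library.

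In all, 2137 genes rose and 1542 fell with enzalutamide among 22860 tested (edgeR quasi-likelihood test, Benjamini-Hochberg adjusted p under 0.05), which is 16.1% of the genes. Rises made up 9.35% of the genes tested and falls 6.75%. Without Enza 1 there were 975 rises (4.13% of 23596 genes) and 1214 falls (5.14%), 9.28% of genes in all. Without Enza 1 and CC-115+Enza 1 there were 2228 rises (9.64%) and 2710 falls (11.7%), 21.4% in all. Without Ctrl 1 there were 880 rises and 928 falls, without Ctrl 2 and Ctrl 3 there were 1124 and 1325 rises, and without Enza 2 there were 2352 falls. The genes called in the same direction with and without Enza 1 numbered 1880 (8.22% of the genes tested). They were 870 rises (3.81% of the genes tested and 40.7% of the rises) and 1010 falls (4.42% and 65.5%). Of 124 falls of at least 4-fold 111 were called again without it, and of 97 rises of that size 80 were. The share of rises among the calls was 58.1% with all libraries, 44.5% without Enza 1, 49.7% with median-of-ratios size factors and 46.8% with DESeq2, so the balance of rises and falls turned with the setting. The spread behind these p-values was estimated from all 24 C4-2 libraries, not from the Enza and Ctrl libraries alone. With only the libraries compared in the fit, 526 genes rose and 527 fell. The labels do not say whether the replicates came from separate cultures, so p-values measure only the spread between libraries.

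**Figure D1:**
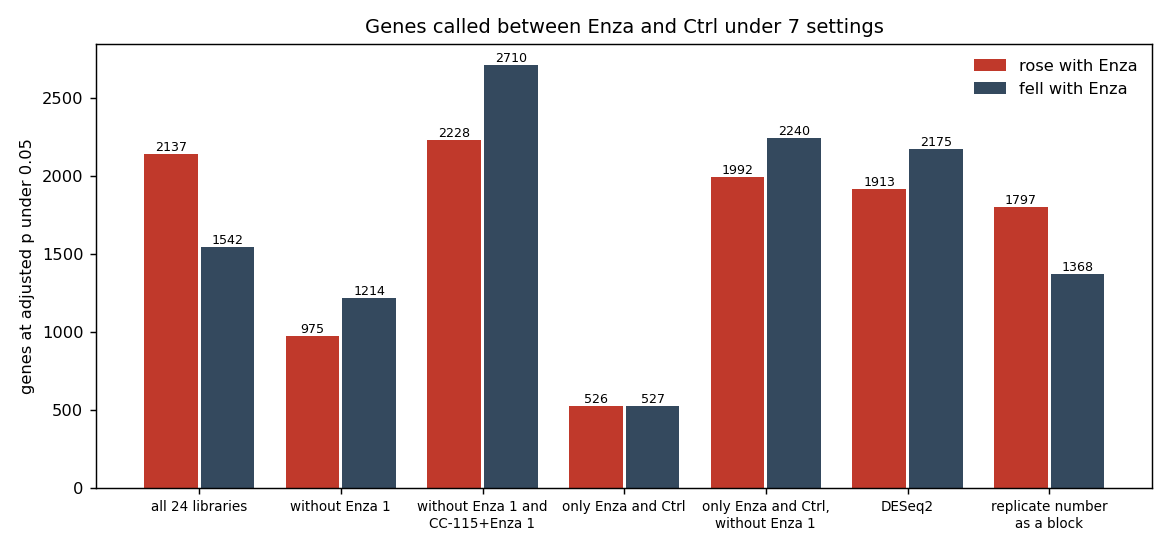
Number of genes that rose (red) and fell (dark) with enzalutamide at an adjusted p under 0.05, by setting. With all 24 C4-2 libraries in the fit 2137 rose and 1542 fell, and without Enza 1 the numbers were 975 and 1214.

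Kallikreins are secreted serine proteases, and those of prostate fluid are standard readouts of receptor activity. The kallikreins KLK2, KLK3, KLK4 and KLK15 were lower with enzalutamide, and other members of the family were not in the list used here. The promoters of KLK3, KLK2, SLC45A3 and FKBP5 are shown as examples of genes that fell and have a window in the RefSeq table (GRCh38.p14). KLK3 and KLK2 have a proximal androgen response element in textbooks. Each window runs from 250 bases before to 50 bases after the start site, 5′ to 3′ on the gene's strand. Capitals mark a match, on either strand, to the hexamer AGAACA or to the spaced core ACANNNNGT, which can overlap. The KLK3 window is chr19:50854665-50854964 on the plus strand, KLK2 chr19:50873189-50873488 on the plus strand, SLC45A3 chr1:205680460-205680759 on the minus strand and FKBP5 chr6:35728534-35728833 on the minus strand.
KLK3: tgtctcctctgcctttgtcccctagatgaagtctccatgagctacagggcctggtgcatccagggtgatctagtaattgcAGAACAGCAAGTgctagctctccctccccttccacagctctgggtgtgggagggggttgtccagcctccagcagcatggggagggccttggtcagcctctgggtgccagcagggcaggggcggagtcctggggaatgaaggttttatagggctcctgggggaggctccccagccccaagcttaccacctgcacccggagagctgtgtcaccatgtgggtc
KLK2: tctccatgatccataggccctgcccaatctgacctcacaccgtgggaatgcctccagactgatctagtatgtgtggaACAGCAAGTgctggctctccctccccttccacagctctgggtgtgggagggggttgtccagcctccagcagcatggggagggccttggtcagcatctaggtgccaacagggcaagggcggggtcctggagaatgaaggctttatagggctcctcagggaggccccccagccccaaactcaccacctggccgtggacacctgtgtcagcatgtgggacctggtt
SLC45A3: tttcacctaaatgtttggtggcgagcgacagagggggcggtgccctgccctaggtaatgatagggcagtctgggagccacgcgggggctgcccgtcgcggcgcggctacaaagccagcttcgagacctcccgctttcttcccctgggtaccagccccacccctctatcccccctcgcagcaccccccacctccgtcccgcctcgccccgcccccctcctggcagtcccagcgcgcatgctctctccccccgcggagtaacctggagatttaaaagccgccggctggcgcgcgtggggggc
FKBP5: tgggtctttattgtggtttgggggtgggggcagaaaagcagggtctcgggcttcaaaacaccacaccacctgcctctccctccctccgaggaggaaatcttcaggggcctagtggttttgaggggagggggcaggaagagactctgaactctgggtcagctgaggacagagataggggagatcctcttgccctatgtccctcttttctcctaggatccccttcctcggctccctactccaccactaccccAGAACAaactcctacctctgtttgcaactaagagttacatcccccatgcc
The KLK3 window held the hexamer 170 bases upstream of the start site that overlapped a spaced core 167 bases upstream. The KLK2 window held a spaced core 173 bases upstream and no hexamer. The FKBP5 window held the hexamer at the start site, and the SLC45A3 window held no match, which says only that these letters are not in this window. Windows of KLK4, TRPM8, MAF and CCDC141 were also searched and are not shown. Those of KLK4, TRPM8 and MAF held no match, and that of CCDC141 held a spaced core 44 bases upstream and no hexamer. Of the 40 genes of the kallikrein and classical androgen-induced lists that fell, 26 had a window, and 5 of these (19.2%) held the hexamer, 5 (19.2%) the spaced core and 0 the stricter core ACANNNTGT. Over all 27305 windows of the table the shares were 14.9%, 24.4% and 5.45%.

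KLK3 (ENSG00000142515) lies on chromosome 19 from 51358171 to 51364020 of hg19 and codes for prostate-specific antigen. It had 694, 643 and 579 CPM in Enza libraries, against 2009, 1928 and 1847 CPM in Ctrl libraries. The Enza and Ctrl libraries did not overlap, and the log2 fold change of KLK3, given here and below with its SE, was −1.59 ± 0.12 (adjusted p = 1.39e-10). KLK2, a related protease whose gene lies beside KLK3, stood at 178, 141 and 125 CPM with Enza and at 669, 658 and 646 CPM in Ctrl, a change of −2.15 ± 0.13 (adjusted p = 2.53e-12). The 2 genes are similar in sequence, and reads that fit both could have been split between them. KLK4, a protease of enamel and prostate, stood at 15.7, 15.5 and 17.4 CPM with Enza and at 32.5, 34.6 and 36.3 CPM in Ctrl (−1.09 ± 0.12, adjusted p = 1.57e-07). TMPRSS2 (chromosome 21), a membrane-anchored serine protease whose promoter is often fused to ETS genes in prostate cancer, stood at 77.8, 67.2 and 63.5 CPM with Enza and at 249.5, 239.5 and 236 CPM in Ctrl (−1.80 ± 0.12, adjusted p = 1.3e-11). The kallikrein list holds KLK2, KLK3, KLK4, KLK15, KLKP1 and TMPRSS2, of which TMPRSS2 is a kallikrein-like protease. All 6 were tested and fell, while 6.75% of all genes tested fell, and all 6 fell without Enza 1. The list median was −1.34 with all libraries and −1.40 without Enza 1, beside 0.06 and −0.01 over all genes. In bulk RNA, fewer cells with a transcript and less of it per cell cannot be told apart.

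Classical androgen-induced genes outside the kallikreins fell in like manner. Of 40 tested members 34 fell and 1 rose, with a median of −1.51, beside 9.35% of all genes that rose and 6.75% that fell. Without Enza 1 the counts and the median were equal, and 34 of these genes were called in the same direction in both fits. In 38 of the 40 every Enza library was below every Ctrl library, which held for 16.1% of all genes tested. The called falls ran from −3.95 to −0.48 on the log2 scale. SLC45A3 (ENSG00000158715, chromosome 1, 205626979 to 205649587), which encodes prostein, a membrane transporter of prostate epithelium, stood at 18, 13.3 and 14.1 CPM with Enza and at 159, 151 and 150 CPM in Ctrl. Its fall of 3.34 ± 0.12 had an adjusted p of 1.64e-16. CHRNA2, a nicotinic acetylcholine receptor subunit, stood at 0.985, 0.998 and 1.07 CPM with Enza and at 15.1, 16.3 and 15.9 CPM in Ctrl (−3.95 ± 0.21). MAF, a leucine zipper transcription factor, stood at 1.43, 1.08 and 1.83 CPM with Enza and at 16, 14.3 and 15.3 CPM in Ctrl (−3.41 ± 0.14). HPGD, the enzyme that inactivates prostaglandins, stood at 0.306, 0.314 and 0.346 CPM with Enza and at 3.58, 3.22 and 2.79 CPM in Ctrl (−3.30 ± 0.24). In none of these 4 genes did the groups overlap, and Enza 1 was the highest Enza library for SLC45A3 and the lowest for CHRNA2 and HPGD.

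A cochaperone gene and a channel gene of the same programme fell as well. FKBP5, a cochaperone of steroid receptors, stood at 80.8, 87.6 and 88.5 CPM with Enza and at 228, 237 and 277 CPM in Ctrl (−1.53 ± 0.14, adjusted p = 9.6e-09). TRPM8, a cold-sensing cation channel, stood at 12.2, 12.5 and 10.9 CPM with Enza and at 81.1, 80.6 and 85.4 CPM in Ctrl (−2.79 ± 0.11). The 5 members that were not called were STEAP4, LRIG1, NCAPD3, PLPP1 and LIFR, with values between −0.72 and −0.07, and LRIG1 was called without Enza 1 (−0.31, adjusted p = 0.00905). These 5 and ACP3 were named after their values were seen, because they are the exceptions of the list. The single member that rose was ACP3, prostatic acid phosphatase, at 15.5, 19 and 18.1 CPM with Enza and 9.66, 9.81 and 8.19 CPM in Ctrl (0.93 ± 0.11, adjusted p = 4.63e-07). The broader androgen response list shares KLK3 and other members with the lists above. It had 61 falls and 2 rises among 98 tested genes (median −0.63), beside 6.75% and 9.35% of all genes. Without Enza 1 it had 56 falls and 0 rises, beside 5.14% and 4.13% of all genes.

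**Figure D2:**
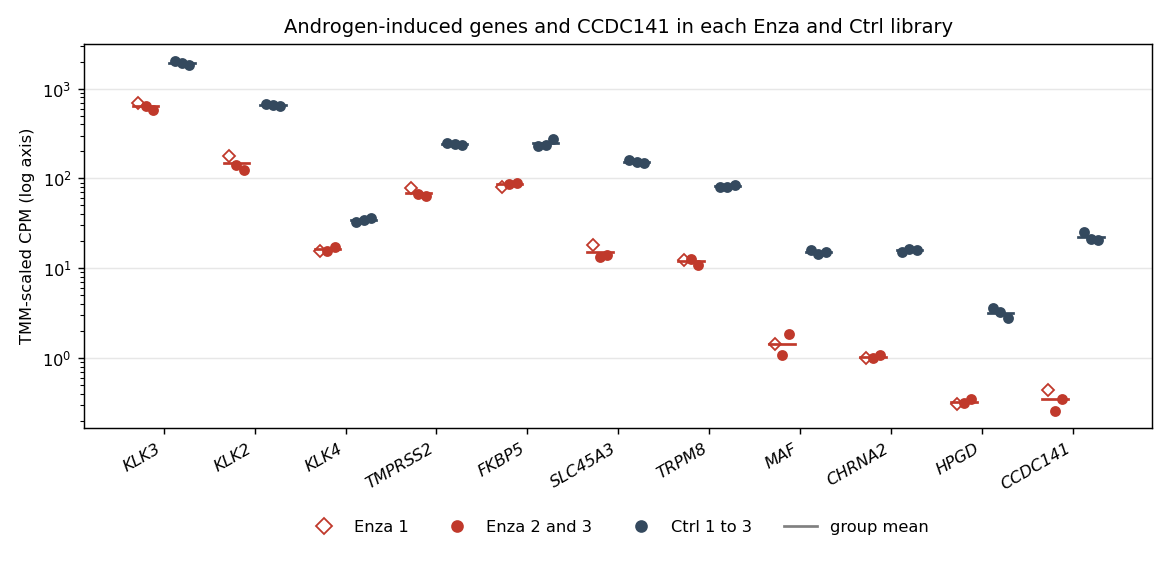
TMM-scaled CPM on a log axis in each Enza library (red, Enza 1 as an open diamond) and each Ctrl library (dark) for 10 androgen-induced genes and CCDC141, with lines at the group means. In all 11 genes the Enza libraries lie below the Ctrl libraries, from KLK3 at 579 to 694 against 1847 to 2009 CPM down to CCDC141. SLC45A3, TRPM8, MAF, CHRNA2, HPGD and CCDC141 are among the largest falls, which were picked only from genes without overlap between the groups.

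In the list of the receptor and its cofactors 2 of 20 tested genes rose and 3 fell, beside 9.35% of all genes that rose and 6.75% that fell. Without Enza 1 the counts were equal, and 4 genes were called in the same direction in both fits. GATA2, a pioneer factor that opens receptor sites, stood at 342, 254 and 261 CPM with Enza and at 163, 180.3 and 179 CPM in Ctrl (0.72 ± 0.10, adjusted p = 1.46e-05), and at 0.53 without Enza 1. NCOA1, a steroid receptor coactivator, stood at 49.4, 67.2 and 72.3 CPM with Enza and at 101, 100.1 and 98.5 CPM in Ctrl (−0.67 ± 0.10). PIAS1, a SUMO ligase, had a change of −0.67 ± 0.14 (−0.47 without Enza 1). In both genes Enza 1 was the lowest library.

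Other steroid receptors differed among themselves. PGR, the progesterone receptor, stood at 1.73, 2.31 and 2.52 CPM with Enza and at 0.298, 0.378 and 0.418 CPM in Ctrl (2.57 ± 0.25, adjusted p = 2.88e-08), with no overlap between the groups. NR3C2, the mineralocorticoid receptor, stood at 17.2, 19 and 19.9 CPM with Enza and at 33.7, 31.9 and 33.2 CPM in Ctrl (−0.81 ± 0.08). NR3C1, the glucocorticoid receptor, which can take over androgen receptor targets in resistant tumours, had 2, 6 and 2 counts in Enza libraries and 1, 0 and 2 counts in Ctrl libraries and was not tested. Of 12 glucocorticoid receptor target genes, several of which are androgen targets too, 7 fell and 3 rose, beside 6.75% and 9.35% of all genes. None of the 3 rises was called without Enza 1, and 6 of the falls were. The members with the largest changes were FKBP5, ZBTB16 (−1.37 ± 0.16), a zinc finger repressor, PER1 (−0.90 ± 0.16), a clock gene, and KLF15 (−0.73 ± 0.12), a Krüppel-like factor.

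Genes reported as androgen-repressed moved upward. Of 16 in the list 12 were tested, 10 rose and 1 fell, beside 9.35% of all genes that rose, and the list median was 1.07. Without Enza 1, 9 rose and 1 fell, and the median was 1.20. CAMK2N1 (ENSG00000162545, chromosome 1, 20808884 to 20812713), an inhibitor of calcium/calmodulin-dependent kinase II, stood at 18.8, 20.8 and 20.7 CPM with Enza and at 3.73, 3.66 and 4.23 CPM in Ctrl (2.37 ± 0.12, adjusted p = 7.46e-14). AMIGO2, an adhesion protein, stood at 4.82, 5.47 and 4.7 CPM with Enza and at 0.775, 1.17 and 1.2 CPM in Ctrl (2.25 ± 0.19). The kappa opioid receptor OPRK1 (2.19 ± 0.43) and the matricellular protein CCN3 (2.06 ± 0.39) rose at levels under 1 CPM in every library. GRIN3A, an NMDA receptor subunit, went the other way, at 11.2, 11.7 and 12.7 CPM with Enza and 33.2, 34.7 and 38.3 CPM in Ctrl (−1.58 ± 0.10), and PEG3 was not called (−0.10, adjusted p = 0.437).

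**Figure D3:**
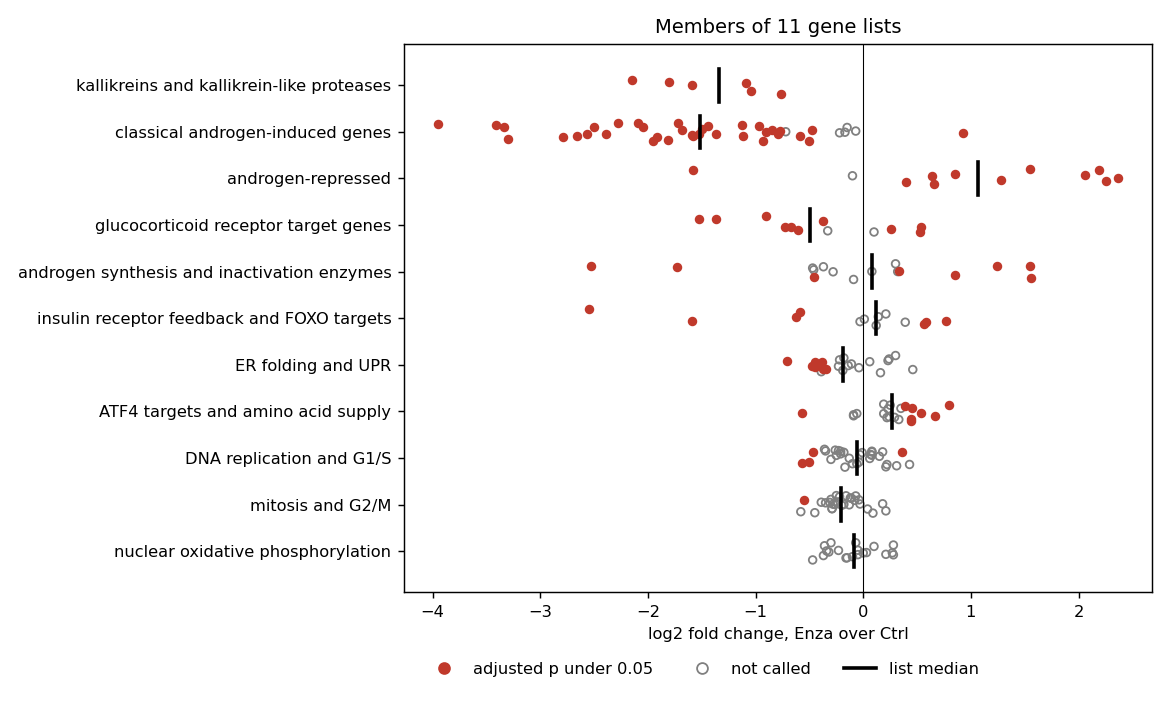
Log2 fold change of Enza over Ctrl for the tested members of 11 gene lists, with called members filled, other members open and the list median as a bar. HSD17B3, which had no count in Ctrl, is not drawn but enters its list's median. The kallikrein and classical androgen-induced lists lie below 0, with medians of −1.34 and −1.51, and the androgen-repressed list lies above it, with a median of 1.07.

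Enzymes that make or inactivate androgens split by gene. Of 17 tested members 6 rose and 3 fell, beside 9.35% and 6.75% of all genes. Without Enza 1, 3 rose and 3 fell, beside 4.13% and 5.14% of all genes. UGT2B15, which glucuronidates dihydrotestosterone for removal, stood at 32.7, 45.7 and 42.2 CPM with Enza and at 15.2, 13.5 and 12.3 CPM in Ctrl (1.55 ± 0.17, adjusted p = 2.89e-07). UGT2B17, with the same activity, stood at 5.4, 9.12 and 7.78 CPM with Enza and at 4.32, 4.51 and 3.59 CPM in Ctrl (0.85 ± 0.19, adjusted p = 0.00246). UGT2B28 fell (−1.73 ± 0.27, adjusted p = 4.35e-05). These genes are close copies of each other, and how reads that match several of them were counted is not given in the sources used here, so the split among them is uncertain. CYP11A1, the cholesterol side-chain cleavage enzyme that starts steroid synthesis, stood at 1.19, 1.03 and 0.864 CPM with Enza and at 6.65, 5.99 and 5.21 CPM in Ctrl (−2.53 ± 0.19, adjusted p = 2.73e-10). HSD17B3, which makes testosterone, had 5, 1 and 2 counts with Enza and 0 in each Ctrl library, and its call ended without Enza 1 (adjusted p = 0.126) and without each Ctrl library.

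Among called protein-coding genes with an average log2 CPM of at least 1 over the C4-2 libraries and no overlap between the groups, the 12 largest falls were CCDC141, CHRNA2, DOCK8, MAF, SLC45A3, HPGD, WWTR1, PGC, DSC1, TRPM8, RHOU and NPNT, and each call held with any 1 of the 6 libraries left out. CCDC141, a coiled-coil protein, stood at 0.441, 0.257 and 0.346 CPM with Enza and at 25.2, 21 and 20.5 CPM in Ctrl (−6.00 ± 0.30, adjusted p = 8.95e-14). RHOU, an atypical small GTPase, stood at 33.8, 39.3 and 35 CPM with Enza and at 264, 226 and 203 CPM in Ctrl (−2.68 ± 0.15). WWTR1, the Hippo pathway coactivator TAZ, stood at 0.272, 0.342 and 0.553 CPM with Enza and at 4.09, 2.68 and 3.59 CPM in Ctrl (−3.15 ± 0.26). The secreted or surface proteins among them were pepsinogen C (PGC, −2.98 ± 0.16), desmocollin 1 (DSC1, −2.85 ± 0.20) and nephronectin (NPNT, −2.66 ± 0.17), and DOCK8, an exchange factor for small GTPases, changed by −3.54 ± 0.26.

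The 12 largest rises under the same limits were GC, LRRC31, ABCA1, GLP1R, CAMK2N1, PLD1, AMIGO2, SLC6A20, MATN2, WNT5A, CNTN5 and TNC, and each of these calls also held with any 1 of the 6 libraries left out. GC, the vitamin D-binding protein of plasma, stood at 14.4, 20.2 and 18.9 CPM with Enza and at 1.82, 2.24 and 2.67 CPM in Ctrl (2.99 ± 0.18, adjusted p = 2.53e-12). ABCA1, the transporter that exports cholesterol to apolipoproteins, stood at 6.76, 6.07 and 6.12 CPM with Enza and at 0.925, 1.01 and 0.557 CPM in Ctrl (2.93 ± 0.19). PLD1, a phospholipase that makes phosphatidic acid, stood at 20.7, 28.8 and 26.4 CPM with Enza and at 4.5, 5.11 and 5.51 CPM in Ctrl (2.33 ± 0.14). WNT5A, a ligand of non-canonical Wnt signalling, stood at 26.8, 25.3 and 28.8 CPM with Enza and at 6.35, 7 and 6.52 CPM in Ctrl (2.02 ± 0.13, adjusted p = 1.03e-11). GLP1R, the receptor of glucagon-like peptide 1 (2.39 ± 0.24), and SLC6A20, a proline transporter (2.23 ± 0.20), rose as well. So did the matrix proteins MATN2 (2.11 ± 0.23) and TNC (1.84 ± 0.18).

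**Figure D4:**
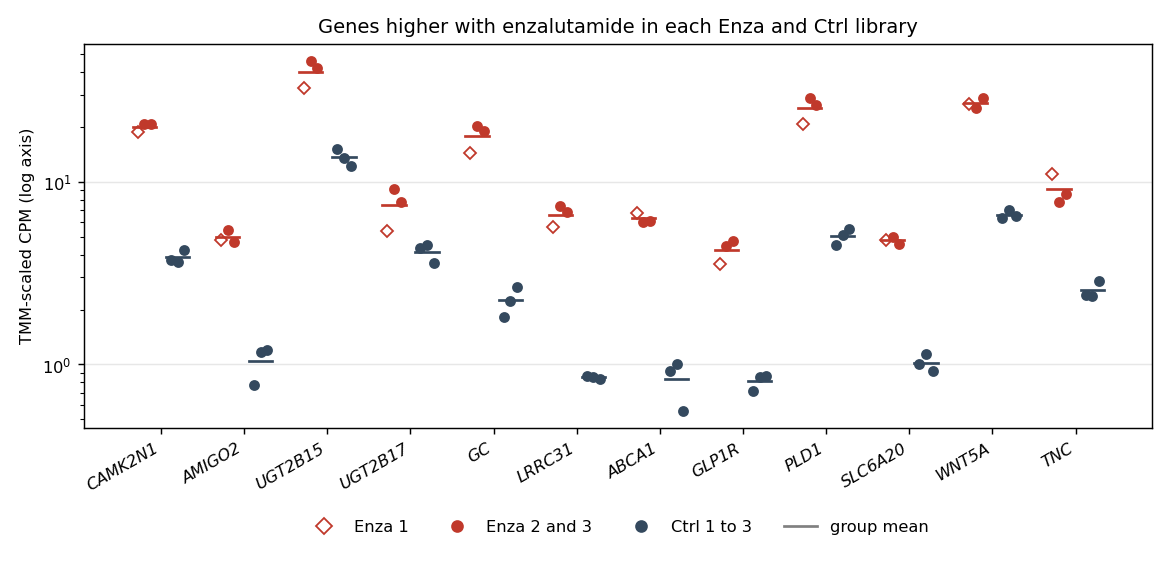
TMM-scaled CPM on a log axis in each Enza library (red, Enza 1 as an open diamond) and each Ctrl library (dark) for 12 genes that rose, with lines at the group means. The Enza libraries lie above the Ctrl libraries in each gene, as for WNT5A at 25.3 to 28.8 against 6.35 to 7 CPM. All but UGT2B15 and UGT2B17 are among the largest rises, which were picked only from genes without overlap between the groups. Enza 1 is the lowest Enza library for UGT2B15, UGT2B17, GC, LRRC31, GLP1R, CAMK2N1 and PLD1.

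Lipid and glycosylation lists are set against the 6.75% of all genes that fell and the 9.35% that rose (5.14% and 4.13% without Enza 1). In the fatty acid list 5 of 13 tested genes fell and 2 rose, and 4 fell and 1 rose without Enza 1. ELOVL7, an elongase of long saturated fatty acids, stood at 24.9, 38.5 and 37.4 CPM with Enza and at 158, 139 and 136 CPM in Ctrl (−2.10 ± 0.12, adjusted p = 1.62e-12). ELOVL5, which elongates polyunsaturated fatty acids, stood at 125, 214 and 193 CPM with Enza and at 559, 517 and 525 CPM in Ctrl (−1.59 ± 0.14). ACSL3, which activates fatty acids with coenzyme A, stood at 257, 258 and 249 CPM with Enza and at 765, 657 and 655 CPM in Ctrl (−1.44 ± 0.12). Sterol synthesis had 5 falls and 3 rises among 24 genes, and 4 falls and 0 rises without Enza 1. None of the 3 rises (TM7SF2, PMVK and CYP51A1, the first named after its value was seen) was called without Enza 1. The call of PMVK also ended without Ctrl 1, and that of CYP51A1 without each Ctrl library. CYP51A1, a sterol demethylase, stood at 60.7, 21.9 and 19.2 CPM with Enza and 21.1, 20.7 and 20.3 CPM in Ctrl, and its log2 fold change of 0.71 became −0.05 without Enza 1. In the hexosamine pathway, which feeds glycosylation, 3 of 6 genes fell, and 2 without Enza 1. UAP1, which makes UDP-N-acetylglucosamine, stood at 143, 169.8 and 149.9 CPM with Enza and at 509, 448 and 429 CPM in Ctrl (−1.58 ± 0.13, adjusted p = 1.58e-09), and GNPNAT1 changed by −0.72 ± 0.13.

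The endoplasmic reticulum folding list had 7 falls and 0 rises among 21 genes, beside 6.75% of all genes that fell. Without Enza 1 it had 7 falls, beside 5.14% of all genes, and 6 genes were called in both fits. The largest fall was that of the transcription factor CREB3L4 (−0.71 ± 0.12). Polyamine genes had 3 falls among 11, and 2 without Enza 1. SAT1, spermidine acetyltransferase, changed by −0.92 ± 0.19 and SMS, spermine synthase, by −0.71 ± 0.14. Their values stayed below the Ctrl libraries in all 3 Enza libraries, with SMS at 147, 180 and 163 CPM against 295, 255 and 252 CPM. The MYC and ribosome biogenesis list had 3 falls among 18 genes, and 5 without Enza 1, with MYC itself at 195, 178 and 171 CPM with Enza and 242, 243 and 248 CPM in Ctrl (−0.43 ± 0.10, adjusted p = 0.00363). The counts of these lists depended on the setting. Without Enza 1 and CC-115+Enza 1, 13 genes of this list, 16 of the folding list and 5 of the polyamine list fell, beside 11.7% of all genes.

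Signalling genes of the insulin and growth factor pathway split, with 4 falls and 3 rises among 13, beside 6.75% and 9.35% of all genes. Without Enza 1 there were 3 falls and 4 rises. INPP4B, a phosphatase that removes a phosphate from phosphatidylinositol lipids and restrains AKT, stood at 3.73, 5.24 and 4.87 CPM with Enza and at 28.5, 27.7 and 25.4 CPM in Ctrl (−2.55 ± 0.16, adjusted p = 4.59e-12). IGF1R, the receptor of insulin-like growth factor, stood at 6.76, 4.99 and 6.67 CPM with Enza and at 16, 18.7 and 20.4 CPM in Ctrl (−1.59 ± 0.21, adjusted p = 3.49e-06). The adaptor IRS1 changed by −0.62 ± 0.11 and the kinase inhibitor PIK3IP1 by 0.77 ± 0.17. In the epithelial-mesenchymal list 1 gene of 9 fell and 1 rose, and the rise (ITGA5, an integrin, 0.38) was not called without Ctrl 2 (adjusted p = 0.0542). SNAI2, a repressor of epithelial genes also known as Slug, stood at 0.204, 0.228 and 0.0691 CPM with Enza and at 2.74, 2.11 and 2.34 CPM in Ctrl (−3.79 ± 0.37, adjusted p = 3.2e-08). IRF1, an interferon response factor, stood at 5.87, 5.22 and 5.08 CPM with Enza and at 1.97, 2.05 and 2.28 CPM in Ctrl (1.36 ± 0.15, adjusted p = 2.06e-07), 1 of 2 rises among 16 interferon genes. The other, IRF7, lost its call without Enza 1 (0.29, adjusted p = 0.089).

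Proliferation and DNA repair lists are likewise set against 6.75% falls and 9.35% rises over all genes, and 5.14% and 4.13% without Enza 1. Mitosis genes had 1 fall among 28, CDK1, which was lost without Enza 1 (−0.43, adjusted p = 0.208), without Ctrl 1 and without Ctrl 2, and the list median was −0.21. Replication genes had 3 falls and 1 rise among 31, and 2 falls without Enza 1, with the clamp loader subunit RFC3 at −0.57 ± 0.13 and the checkpoint mediator CLSPN at −0.47 ± 0.13. Homologous recombination and Fanconi genes had 4 falls among 17, and 3 without Enza 1, with RAD54B at −0.62 ± 0.14. PRKDC, the catalytic subunit of DNA-PK and the target of NU7441, stood at 1012, 941 and 1059.6 CPM with Enza and at 1099, 1095 and 1119 CPM in Ctrl (−0.14 ± 0.10, adjusted p = 0.38). In the end joining list RIF1 fell (−0.49 ± 0.10), and the rise of NHEJ1 was lost without Enza 1 (0.79, adjusted p = 0.184), without Ctrl 2 and without Ctrl 3. None of 20 nuclear oxidative phosphorylation genes was called by edgeR or DESeq2, and without Enza 2 5 fell. The shares above do not apply to that fit, in which 2352 genes fell in all, beside 1542 with all libraries.

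Stress and other lists are set against the 9.35% of all genes that rose and the 6.75% that fell with all libraries. Without Enza 1 the shares were 4.13% for rises and 5.14% for falls. Of 20 ATF4 and amino acid supply genes 7 rose and 1 fell, and 3 rose and 1 fell without Enza 1. PHGDH, the first enzyme of serine synthesis, stood at 766, 444 and 422 CPM with Enza and at 296, 313 and 325 CPM in Ctrl (0.80 ± 0.16, and 0.44 without Enza 1). Of 20 p53 targets 4 rose, and 3 without Enza 1. GDF15, a secreted stress cytokine, stood at 66.7, 44 and 44 CPM with Enza and at 22.5, 28.6 and 29.7 CPM in Ctrl (0.94 ± 0.18, and 0.67 without Enza 1). In both genes the Enza libraries lay above all Ctrl libraries, with Enza 1 the highest. Neuroendocrine markers had 2 rises among 7, ENO2 and POU3F2, and neither was called without Enza 1 (adjusted p = 0.0698 and 0.073) or without Ctrl 1, nor POU3F2 without Ctrl 3 or Enza 3. Glycolysis and hypoxia genes had 3 rises and 2 falls among 19, and 1 rise and 4 falls without Enza 1. In the Wnt list WNT5A and RNF43 (0.58 ± 0.11), a ligase that removes Wnt receptors, kept their calls without Enza 1, and NKD1 did not (0.31, adjusted p = 0.295), nor was NKD1 called without any 1 of the Ctrl libraries. Among markers of other cell types COL1A1 and COL3A1 rose. The call of COL1A1 ended without Enza 1 (0.55, adjusted p = 0.237) and without Ctrl 1. COL3A1, a fibrillar collagen, stood at 2.95, 1.25 and 1.35 CPM with Enza and 0.477, 0.505 and 0.585 CPM in Ctrl (1.81 ± 0.30), and PTPRC, a leukocyte antigen, had 6, 7 and 6 counts against 0 in each Ctrl library. The part of other cell types in any result was not tested.

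Enzalutamide was also added to cells that received an inhibitor, and these comparisons share no library with that of Enza and Ctrl. Of the 3679 genes called with enzalutamide alone, 1112 (30.2%) were called in the same direction between NU7441+Enza and NU7441, where 6.08% of all genes were called, and 0 in the opposite one. Between CC-223+Enza and CC-223 the number was 1654 (45.0%, beside 12.4% of all genes), with 1 in the opposite direction. Between CC-115+Enza and CC-115 it was 1772 (48.2%, beside 23.8% of all genes), with 36 in the opposite direction. In the other direction, 80.1% of the calls with NU7441 present were calls of the same sign with enzalutamide alone, 58.3% with CC-223 and 32.5% with CC-115. All 3 backgrounds gave the same call for 831 of the 3679 genes (22.6%), 323 rises and 508 falls. The share of all genes called in all 3 was not counted, and it can be at most the 6.08% called with NU7441.

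The androgen lists were called in each background. Of the 40 classical androgen-induced genes 34 fell with NU7441 present (3.32% of all genes fell), 38 with CC-115 (12.2%) and 37 with CC-223 (6.76%), and 1 rose in each. Of the 12 androgen-repressed genes 9 rose with NU7441 (2.75% of all genes rose), 11 with CC-115 (11.7%) and 11 with CC-223 (5.66%). SLC45A3 changed by −3.45 with NU7441, −3.46 with CC-115 and −3.59 with CC-223 present, beside −3.34 with enzalutamide alone, and KLK3 by −1.94, −1.73 and −1.53, beside −1.59. KLK3 stood at 1318 ± 237 CPM (mean ± SD, n = 3) in CC-115+Enza and 1125 ± 8.32 CPM in CC-223+Enza, against 4369 ± 71.4 CPM in CC-115 and 3252 ± 60 CPM in CC-223. It stood at 602 ± 22.7 CPM in NU7441+Enza against 2305 ± 130 CPM in NU7441, and at 639 ± 57.5 CPM in Enza against 1928 ± 81.1 CPM in Ctrl.

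Whether an inhibitor changed the effect of enzalutamide was tested as an interaction, which uses the Enza and Ctrl libraries again. With NU7441 no gene passed in edgeR or DESeq2, and 1548 of 22860 genes had an unadjusted p under 0.05 in edgeR. With CC-115 747 genes passed (3.27%), 227 with a positive difference (0.993%) and 520 with a negative one (2.27%), and 375 of them were among the calls with enzalutamide alone. The count was 388 to 468 without any 1 Ctrl or CC-115 library, 1250 without Enza 3, 1425 without Enza 1 and CC-115+Enza 1 and 166 with only the compared libraries. Of the 375 genes, in 168 the rise was smaller with CC-115 and in 58 the fall was smaller, and in 39 and 110 the rise or fall was larger. Calls with enzalutamide alone made up 16.1% of all genes. They came from the same Enza and Ctrl values that the interaction subtracts. The number of such genes and the split into smaller and larger are therefore not independent of those calls. With CC-223 86 genes passed (0.376%), 29 with a positive difference (0.127%) and 57 with a negative one (0.249%). Of these genes 58 were calls with enzalutamide alone, with the same limit. That count was 47 to 56 without Ctrl 1, Ctrl 2 or any 1 CC-223 or CC-223+Enza library, and 444 without Enza 1 and CC-115+Enza 1. WNT5A showed such a difference, at 6.3 CPM in CC-115+Enza against 9.17 CPM in CC-115 (−0.54, adjusted p = 0.00325), beside a rise of 2.02 with enzalutamide alone (interaction −2.56 ± 0.18, adjusted p = 9.62e-10). TMPRSS2 showed a larger fall, at 93.9 CPM in CC-115+Enza against 729 CPM in CC-115 (interaction −1.16 ± 0.16, adjusted p = 6.17e-05). In Enza it stood at 69.5 CPM, against 242 CPM in Ctrl.

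**Figure D5:**
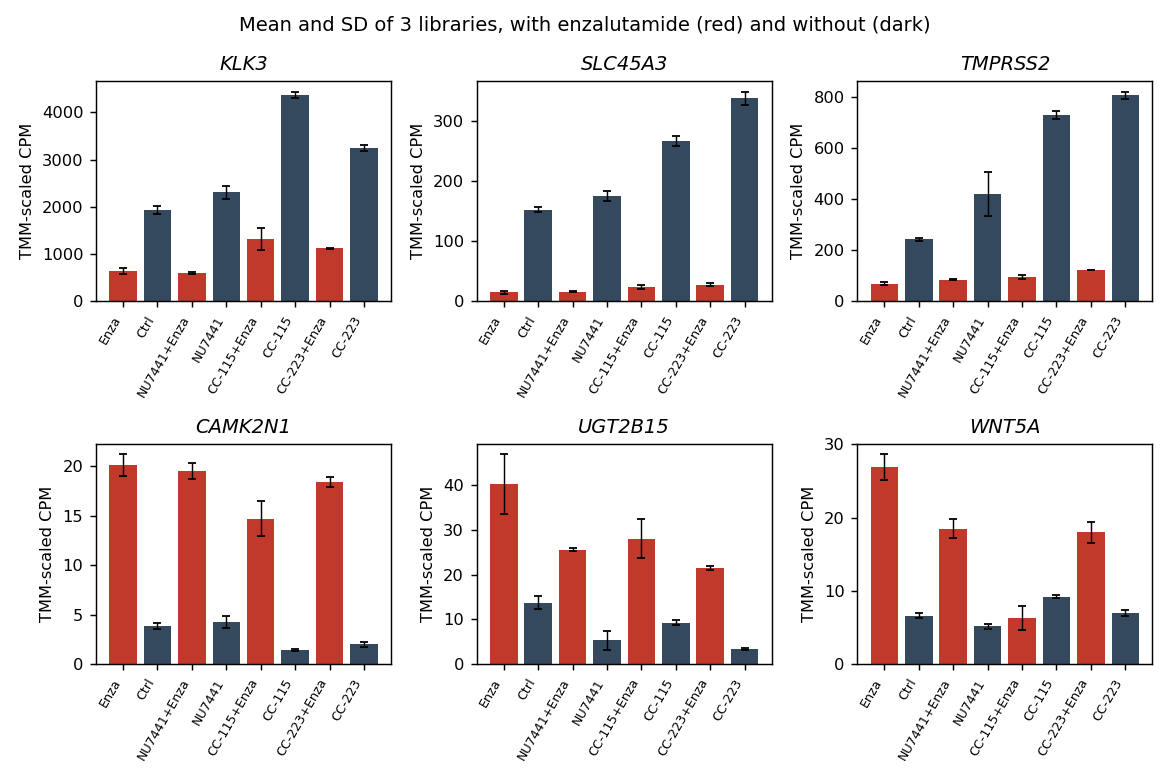
Mean TMM-scaled CPM with SD of 3 libraries in the 8 C4-2 groups, each group with enzalutamide (red) left of its match without it (dark). KLK3, SLC45A3 and TMPRSS2 are lower and CAMK2N1 and UGT2B15 higher with enzalutamide in each of the 4 pairs, and WNT5A is higher in 3 pairs but not with CC-115.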

How the data were processed

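RNA-seq counts per gene were taken as deposited by the authors. Per the submitters' processing notes, STAR 2.5.2a, featureCounts 1.5.0-p3, DESeq2 1.14.1 and hg19 were used. Per the labels' protocols, libraries were stranded total RNA after ribosomal RNA removal. Strand setting, annotation release and treatment of reads with several matches were not given in the sources used here. The C4-2 table holds 63677 features, and 22860 passed edgeR's default filter on low counts. The 24 C4-2 libraries (8 groups of 3) entered 1 quasi-likelihood fit with TMM scaling (edgeR 4.0.16, limma 3.58.1, R 4.3.3), and each comparison was a contrast with Benjamini-Hochberg adjustment and a threshold of 0.05. The SE was recovered from the fold change and the F statistic, as its size over the root of F. CPM values are TMM-scaled except marker sums, which are raw CPM. DESeq2 1.42.0 was an alternative. Tables and figures were made with matplotlib 3.10.9, numpy 2.4.6 and pandas 2.3.3 under Python 3.11.15. The fit was also run on simulated counts drawn around the means of the Ctrl libraries, and the outcome is not reported here. No simulated library was made to stand apart as Enza 1 does, so that run does not bear on its effect.

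The comparison, the members and the 29 gene lists were chosen with earlier results of these data known. Genes named are 11 fixed genes, the 12 largest rises and falls among called protein-coding genes with an average log2 CPM of at least 1 and no overlap between groups, up to 4 called members per list with the largest changes, and the 3 largest interactions in each direction per inhibitor. Exceptions are stated, and some genes chosen by this rule are not reported here. The alternatives were other size factors, other filters, no mitochondrial or small RNA, DESeq2, the replicate number as a block, the compared libraries alone and each library left out. A fit of the Enza and Ctrl libraries alone without Enza 1 was chosen after seeing the data.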

Additional observations from a re-analysis of the deposited data

Results flagged for a closer look

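The effect of enzalutamide differed with an inhibitor present for the genes below, by the interaction term of the edgeR fit across all genes. Each value is the log2 fold change with the inhibitor minus that of Enza over Ctrl, ± SE. All passed again without Enza 1 (highest adjusted p = 0.0156) and without both Enza 1 and CC-115+Enza 1 (highest adjusted p = 0.0201).

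With CC-115 present, the falls of androgen-induced genes were larger for HPGD (−3.90 ± 0.53, adjusted p = 4.93e-05), TMPRSS2 (−1.16 ± 0.16, adjusted p = 6.17e-05) and FKBP5 (−1.03 ± 0.20, adjusted p = 0.00228). HPGD stood at 0.0212 to 0.0472 CPM in CC-115+Enza, close to no counts, against 4.58 to 5.3 CPM in CC-115. The size of its difference is therefore uncertain. In CC-115+Enza TMPRSS2 stood at 93.9 CPM, above the 69.5 CPM in Enza. FKBP5 stood at 30.4 CPM there, below the 85.6 CPM in Enza. SGK1, a kinase related to AKT, changed by −4.04 with CC-115 and by −0.67 alone (interaction −3.37 ± 0.24). WNT5A changed by −0.54 with CC-115 and by 2.02 alone (−2.56 ± 0.18). TNFSF15, a cytokine of the tumour necrosis factor family, rose by 3.24 with CC-115 and by 0.51 alone (2.73 ± 0.13). BACE2, an aspartyl protease, rose by 2.59 with CC-115 and was not called alone (0.52, adjusted p = 0.213; interaction 2.07 ± 0.35). The fall of WWTR1 was smaller, at −1.33 with CC-115 and −3.15 alone (1.82 ± 0.34).

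With CC-223 present, falls were larger for SGK1 (−2.09 ± 0.22), for CSGALNACT1, a chondroitin sulphate enzyme (−1.73 ± 0.19), for NDRG1, a stress and androgen response gene (−1.67 ± 0.16), for FKBP5 (−1.39 ± 0.20) and for TMPRSS2 (−0.92 ± 0.16). All of these genes stood higher in CC-223 than in Ctrl, as NDRG1 at 216 against 59 CPM. In CC-223+Enza NDRG1 (44.9 CPM) and TMPRSS2 (122 CPM) stood above their levels in Enza (39.1 and 69.5 CPM). SGK1, CSGALNACT1 and FKBP5 stood below theirs. The fall of NPNT was smaller, at −0.87 with CC-223 and −2.66 alone (1.79 ± 0.23). Rises were larger for UGT2B17, at 2.5 with CC-223 and 0.85 alone (1.65 ± 0.28), and for PLD1, at 3.80 and 2.33 (1.47 ± 0.21).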

How the results depend on the processing

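Of 1659 alternative values over the 111 tested genes that the naming rule chose, 1534 kept their direction and their side of the threshold, 121 fell short of it, 2 newly passed it and 2 changed sign. Both sign changes were CYP51A1, at −0.05 without Enza 1 and −0.01 without Enza 1 and CC-115+Enza 1, beside 0.71, and its range over single libraries left out was −0.05 to 0.96. Calls were lost for 21 of these genes without Enza 1 (CYP51A1 and 20 that kept their sign), 21 without Ctrl 1 and 35 with only the 6 compared libraries. Medians of 6 lists changed sign in 25 values, none with a median beyond 0.12. Leaving out 1 library gave 1808 to 4998 calls for Enza against Ctrl, with 880 to 2646 rises and 928 to 2352 falls. The ranges were 986 to 1222 for NU7441+Enza against NU7441, 3501 to 7792 for CC-115+Enza against CC-115 and 2121 to 2251 for CC-223+Enza against CC-223. For the interactions they were 388 to 1250 with CC-115, 47 to 117 with CC-223 and 0 with NU7441. With only the libraries compared there were 1053 calls (526 rises, 527 falls), and 2759, 1908 and 7456 with NU7441, CC-115 and CC-223, beside 1389, 5451 and 2839 in the fit of all libraries. The CC-115 interaction then gave 166. Without Enza 1 and CC-115+Enza 1, 2710 genes fell, 3632 and 6145 were called with NU7441 and CC-223, and the interactions gave 3 with NU7441, 1425 with CC-115 and 444 with CC-223. With no filter the interactions gave 23 with NU7441 and 201 with CC-223, and DESeq2 gave 192 with CC-223. The cause was not tested. With the Enza and Ctrl libraries alone and Enza 1 left out, chosen after seeing the data, 4232 genes were called. Same-numbered replicates did not deviate together (correlations of −0.02, −0.03 and 0.09 between Enza and Ctrl), so the numbers are not read as pairs. A replicate block gave 3165 calls, and 1283, 4915 and 2633 with NU7441, CC-115 and CC-223.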
